A study of Mus musculus with 6 samples.

Results

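The genes described here are 10 named components of the signalling axes that hold and feed haematopoietic stem cells in the bone marrow. They are the ligands Cxcl12, Kitl, Angpt1, Angpt2, Thpo and Flt3l, the receptors Cxcr4, Ackr3 and Kit, and the peptidase gene Dpp4. They were chosen by name, with earlier results of these data known. Of the 10, 8 had a probe set paired with a single gene symbol, among 22180 genes measured that way. Thpo was paired with no probe set, and Flt3l only with a probe set it shares with another gene, so neither has a value here. Angpt1 had 2 probe sets and the other 7 genes had 1 each. The receptors of the angiopoietins and of FLT3 ligand, Tek and Flt3, are described beside them.

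RNA of 6 samples was measured on 1 Affymetrix array each. The mice had chronic myeloid leukemia (CML) in 3 samples and acute myeloid leukemia (AML) in the other 3. All 6 came from sorted bone marrow cells that the labels call osteoblastic and the titles call stromal, of genotype Col2.3 GFP, a reporter whose green fluorescent protein is driven by a piece of the Col1a1 promoter in bone-forming cells. How each leukemia was induced, the sort gate, and the strain and age of the mice are not given in the sources used here, and no healthy control was analysed here. The titles and the series design give 3 arrays to each leukemia while the source names give CML for all 6, so every direction below rests on the titles. The labels do not tie the samples to different mice, so the spread behind each p-value could be technical.

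CXCL12 is a chemokine made by marrow stromal cells that holds stem and progenitor cells in place through its receptor CXCR4. ACKR3 is an atypical receptor that scavenges the same chemokine, and dipeptidyl peptidase 4, the product of Dpp4, clips its amino terminus and inactivates it. Stem cell factor, the product of Kitl, sits on or is shed from stromal and endothelial cells and signals through the receptor tyrosine kinase KIT on progenitors and mast cells. Angiopoietin 1 activates the receptor TIE2, encoded by Tek, on endothelial cells and stem cells, and angiopoietin 2 mostly opposes it. Thrombopoietin sustains stem cells and megakaryocytes, and FLT3 ligand acts through FLT3 on early progenitors.

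The promoter sequences of the main ligand and receptor pairs, CXCL12 with CXCR4 and stem cell factor with KIT, are shown to place the genes compared below. Each run is the 250 bases before the RefSeq transcription start in assembly GRCm38.p6, read 5′ to 3′ on the gene's own strand. They lie at chr6:117168285-117168534 on the plus strand for Cxcl12, chr1:128592300-128592549 on the minus strand for Cxcr4, chr10:100015571-100015820 on the plus strand for Kitl and chr5:75574737-75574986 on the plus strand for Kit. Capitals mark matches, on either strand, to the GC box GGGCGG, the PU.1 motif core GAGGAA, the GATA motif AGATAA, the E-box CANNTG or the hypoxia element core ACGTG. Overlapping matches were counted separately.
Cxcl12: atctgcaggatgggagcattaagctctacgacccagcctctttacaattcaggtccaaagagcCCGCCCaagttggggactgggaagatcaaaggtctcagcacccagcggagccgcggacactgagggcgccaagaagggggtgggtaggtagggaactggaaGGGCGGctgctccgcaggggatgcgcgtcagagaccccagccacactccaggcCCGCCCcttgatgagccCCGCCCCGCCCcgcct
Cxcr4: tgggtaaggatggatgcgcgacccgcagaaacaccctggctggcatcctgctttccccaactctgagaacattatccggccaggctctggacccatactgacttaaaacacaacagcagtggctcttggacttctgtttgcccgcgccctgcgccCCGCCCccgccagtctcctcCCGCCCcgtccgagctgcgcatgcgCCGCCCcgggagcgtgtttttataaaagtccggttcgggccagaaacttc
Kitl: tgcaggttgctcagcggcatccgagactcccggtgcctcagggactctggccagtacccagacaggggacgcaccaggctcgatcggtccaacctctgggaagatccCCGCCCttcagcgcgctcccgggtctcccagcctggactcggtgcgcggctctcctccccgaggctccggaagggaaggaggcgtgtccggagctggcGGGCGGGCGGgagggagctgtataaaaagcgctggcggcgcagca
Kit: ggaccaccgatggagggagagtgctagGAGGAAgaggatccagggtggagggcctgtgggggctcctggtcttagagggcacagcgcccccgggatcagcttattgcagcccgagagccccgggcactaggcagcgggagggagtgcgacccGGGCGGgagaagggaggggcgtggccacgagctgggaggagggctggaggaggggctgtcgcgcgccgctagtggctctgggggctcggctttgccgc

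The GC box occurred 5 times in the Cxcl12 window, 3 times in those of Cxcr4 and Kitl and once in that of Kit, and 33.0% of 32536 promoter windows of this length in the table held it. The Kit window held the PU.1 core once, a string found in 23.4% of windows. The GATA string, the E-box and the hypoxia core were in none of the 4 windows, while 10%, 66.2% and 16.7% of all windows held them. The table had entries for 8 of the 10 genes. Angpt1 and Angpt2 had none. A match is a string of letters in the window and was not set against any binding data.

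Of the 8 measured genes, Kit rose in AML and the other 7 did not pass the test. Kit intensity was 3.48-fold higher in the AML samples (log2 change 1.80 ± 0.21, SE, n = 3 each), while its ligand gene Kitl differed by 0.005 on the log2 scale. Cxcl12 and Cxcr4 were both higher by value in AML, and Angpt1 differed by 1.62 on the log2 scale at 1 of its 2 probe sets, which lay under the array medians on 4 of the 6 arrays. Ackr3 and Angpt2 differed by -0.23 and 0.02, and Dpp4 spread so widely among the CML samples that no direction could be given. The call is an adjusted p under 0.05 in limma with Benjamini-Hochberg adjustment over all 22180 genes, and 1.91% of all genes passed it, 1.83% as higher and 0.0812% as lower in AML. At an unadjusted p under 0.05, 3 of the 8 genes were higher and 0 lower, where 21.5% of all genes passed in either direction. By value 6 were higher and 2 lower in AML, with a median change of 0.47 against -0.11 over all genes.

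**Figure D1:**
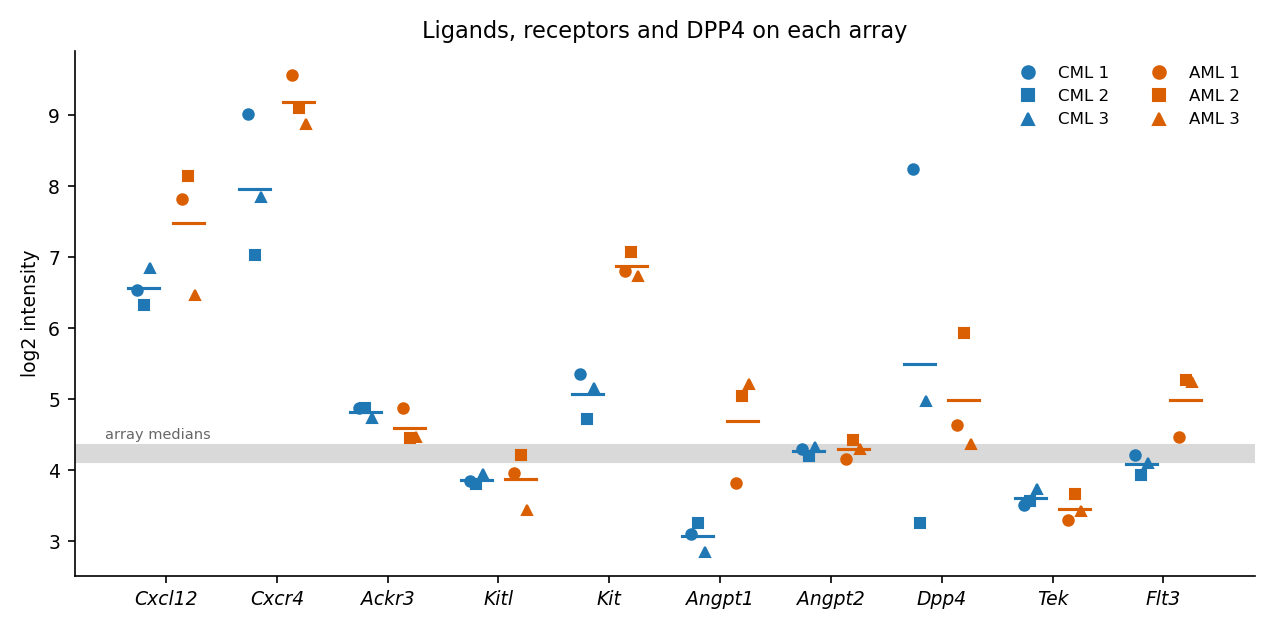
Log2 intensity of the 8 measured genes and of Tek and Flt3 on each array. Points are single arrays, blue for CML and orange for AML, short lines are group means (n = 3 each) and the grey band spans the 6 array medians over all probe sets, 4.11 to 4.35. Kit, Angpt1 and Flt3 separate the groups, as did 31.3% of all genes. Cxcl12, Cxcr4 and Dpp4 overlap, and Kitl, Angpt2 and Tek lie near or below the band in both.

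Among the ligands, Cxcl12 (probe set 17462149, chromosome 6) was well above the array medians on every array. The CML arrays (1, 2 and 3 in order, here and below) read 6.53, 6.32 and 6.84 on the log2 scale, and the AML arrays read 7.82, 8.15 and 6.47. AML 1 and AML 2 lay above all CML arrays, while AML 3 lay among them, so the groups overlapped. The means were 6.56 ± 0.26 in CML and 7.48 ± 0.89 in AML (SD, n = 3 each). The difference of 0.92 ± 0.43 (SE) did not pass (limma adjusted p = 0.267), with a 95% interval of -0.12 to 1.95. Without AML 3 it was 1.42 (limma adjusted p = 0.0605), and the range with 1 array left out was 0.58 to 1.42.

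The summed intensity of 9 osteoblast markers ran from 2664 to 12373 on the CML arrays and from 1292 to 4686 on the AML arrays. All 9 were lower by value in AML, 0 passed in limma, 1 of them had an unadjusted p under 0.05, and none was at 0. Col1a1, the collagen whose promoter drives the reporter, was at 7.26 or above on each array, whereas Bglap, which encodes osteocalcin, was at 7.04 on CML 3 and between 3.31 and 4.84 on the other 5. Within AML the arrays ranked alike for Cxcl12 and for this sum, with AML 2 highest and AML 3 lowest, but CML 3, with the highest sum of all, had less Cxcl12 signal than AML 1 or AML 2. The markers of perivascular reticular cells, the main known source of CXCL12 in marrow, summed to 188 to 624 in CML and 167 to 248 in AML, with 3 of 9 higher by value, 0 past the threshold in limma and 1 at an unadjusted p under 0.05. Without Ebf1, left out after its high value on CML 1 was seen, the other 8 summed to 163 to 267 in CML and 151 to 188 in AML. Their part in the Cxcl12 values was not tested. In bulk samples, fewer cells of a type and less RNA per cell cannot be told apart.

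Cxcr4 (probe set 17226593, chromosome 1) was also well above the array medians on every array. It was at 9.01, 7.02 and 7.85 in CML, and at 9.57, 9.10 and 8.87 in AML. CML 1 stood above AML 3, so the groups overlapped and the CML arrays spread more widely than the AML arrays. The means were 7.96 ± 1.0 and 9.18 ± 0.36 (SD, n = 3 each), and the difference of 1.22 ± 0.49 (SE) did not pass (limma adjusted p = 0.220). Without CML 1 it was 1.75 (limma adjusted p = 0.0604), and without CML 2 it was 0.75 (limma adjusted p = 0.276).

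The other receptor of CXCL12, Ackr3 (probe set 17215605, chromosome 1), was at 4.87, 4.87 and 4.73 in CML and 4.87, 4.46 and 4.47 in AML. AML 1 matched the CML arrays and the other two AML arrays were lower. The difference was -0.23 ± 0.16 (SE; limma adjusted p = 0.415), with a 95% interval of -0.62 to 0.17.

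Dpp4 (probe set 17385719, chromosome 2) had the widest spread of the 8 genes. The CML values were 8.25, 3.26 and 4.97, which is 303.6, 9.6 and 31.4 in intensity, and the AML values were 4.64, 5.93 and 4.37. All AML values lay between the CML extremes. The difference of -0.51 ± 1.2 (SE; limma adjusted p = 0.802) turned to 0.87 without CML 1 (limma adjusted p = 0.457). CML 1 was also the array with the highest sum over 8 mast cell and basophil markers, 3198 against 166 to 304 on the other 5, with 0 of the 8 past the threshold in limma, 0 at an unadjusted p under 0.05 and none at 0. The brightest markers on that array, Mcpt8 and Hdc, weigh most in this sum. Mcpt4 and Tpsab1 were not highest on CML 1, while the other markers were. The part of these cells in the Dpp4 value was not tested.

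Among the receptors, Kit (probe set 17438272, chromosome 5) rose. It was at 5.35, 4.71 and 5.15 in CML, and at 6.81, 7.08 and 6.73 in AML. Every AML array lay above every CML array, with a gap of more than 1 on the log2 scale between the groups. Groups did not overlap for 2 of the 8 genes and for 31.3% of all genes. The means were 5.07 ± 0.33 and 6.87 ± 0.18 (SD, n = 3 each). The rise was 1.80 ± 0.21 on the log2 scale (SE), with a 95% interval of 1.30 to 2.29 (limma adjusted p = 0.0232). With 1 array left out it ran from 1.62 to 1.94 and stayed positive. It passed without CML 1, CML 2 or AML 3, and did not pass without CML 3, AML 1 or AML 2 (limma adjusted p = 0.0838, 0.107 and 0.125), where no gene on the array passed.

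Kitl (probe set 17236900, chromosome 10), the gene of KIT's ligand, was dim. It was at 3.85, 3.80 and 3.95 in CML and 3.96, 4.21 and 3.44 in AML, below the array medians except on AML 2. The AML arrays spread around the CML values on both sides. The difference was 0.005 ± 0.21 (SE; limma adjusted p = 0.990), with a 95% interval of -0.51 to 0.52. That interval is the range of differences these values allow, and not the size the test could detect. Angpt1, at a larger difference of 1.62, did not pass either.

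**Figure D2:**
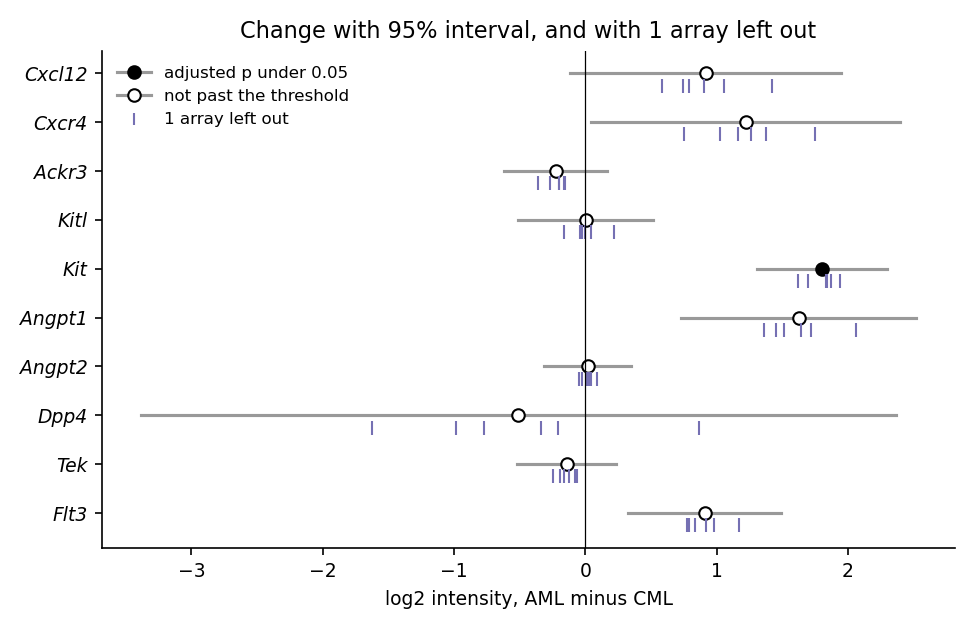
Change in log2 intensity, AML minus CML, with the 95% limma interval (grey line) for each gene, filled where the adjusted p was under 0.05. Purple ticks give the change with each array left out in turn. The Kit ticks stay between 1.62 and 1.94, while the Dpp4 ticks run from -1.63 to 0.87.

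Markers of blood cells moved with Kit and Cxcr4. All 16 blood cell markers were higher by value in AML, and 1 of them rose in limma, Vav1. At an unadjusted limma p under 0.05, 13 of the 16 were higher, where 21.5% of all genes passed in either direction. Their summed intensity was 2684 to 7386 in CML and 9793 to 15575 in AML. Of 9 markers of primitive haematopoietic progenitors 7 were higher by value, 5 were higher at that unadjusted p, and Meis1, Hoxa9 and Mecom rose. Their sums were 190 to 559 in CML and 744 to 1122 in AML. None of either list was at 0 on any array. The mast cell and basophil markers did not move that way, with 0 of 8 higher by value in AML. The part of blood cell content in the Kit and Cxcr4 differences was not tested.

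**Figure D3:**
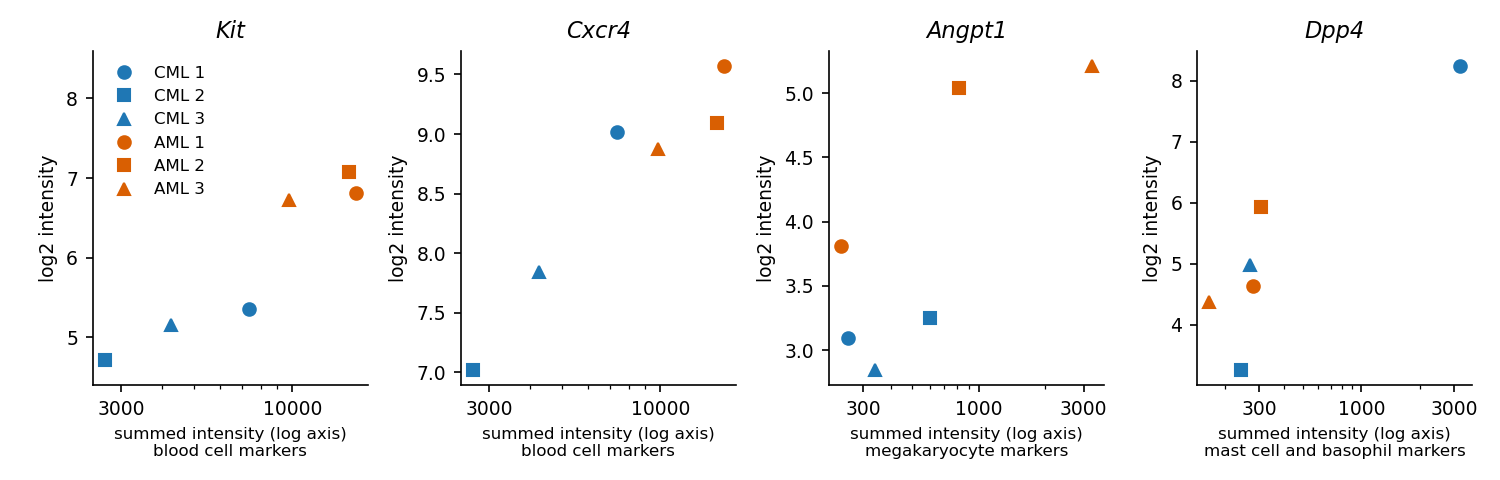
Log2 intensity of Kit, Cxcr4, Angpt1 and Dpp4 (vertical axes) against the summed intensity of a marker list on the same array (horizontal log axes). Each point is 1 array. All AML arrays lie above all CML arrays for Kit, the groups overlap for Cxcr4, and CML 1 stands alone for Dpp4.

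Among the angiopoietin genes, Angpt1 (probe set 17316780, chromosome 15) was higher by value in AML. It was at 3.10, 3.25 and 2.85 on the CML arrays, under the array medians, and at 3.81, 5.04 and 5.21 on the AML arrays. The groups did not overlap, as was true of 31.3% of all genes, and AML 1, also under its array median, lay closer to the CML arrays than to the other AML arrays. The difference of 1.62 ± 0.37 (SE) did not pass (limma adjusted p = 0.0855). It was 0.81 with 16 added before log2 and 0.93 with the mean of both probe sets (limma adjusted p = 0.157 and 0.135). The other Angpt1 probe set, 17311312, was dim on all arrays, at 2.78, 3.00 and 2.93 in CML and 2.84, 3.10 and 3.47 in AML. Its groups overlapped, and its difference was 0.23 ± 0.2 (SE; limma adjusted p = 0.513 over every probe set, a fit in which 0.685% passed).

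Markers of megakaryocytes, which are known to express Angpt1, had the same order as Angpt1 within AML. Their 7 measured markers summed to 238, 812 and 3260 on the AML arrays and to 254, 604 and 339 on the CML arrays. Of the 7, 5 were higher by value, 0 passed in limma, 0 had an unadjusted p under 0.05 and none was at 0. All 3 CML sums lay above that of AML 1, which had the higher Angpt1 value. The part of these cells in the Angpt1 values was not tested.

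Angpt2 (probe set 17507799, chromosome 8) was at 4.30, 4.2 and 4.33 in CML and 4.15, 4.42 and 4.30 in AML, the level of the array medians. The difference was 0.02 ± 0.14 (SE; limma adjusted p = 0.945), with a 95% interval of -0.31 to 0.35. Tek, which encodes their receptor TIE2, was at 3.50, 3.57 and 3.73 in CML and 3.29, 3.66 and 3.42 in AML, under the medians on every array. It differed by -0.14 ± 0.16 (SE; limma adjusted p = 0.577), and the sign turned under the 3 other scalings. Of 12 markers of endothelium, the cells best known for TIE2, 3 were higher and 9 lower by value in AML. In limma 0 passed, and 1 was lower at an unadjusted p under 0.05. Their sums, in which the brightest markers weigh most, were 301 to 354 in CML and 329 to 391 in AML.

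Ligand and receptor were then compared within each array as a difference of log2 values, in which any shift common to an array cancels. Only the change of such a difference between leukemias can be read, since levels of different probe sets are not comparable. This was done for 7 pairs, and an exact two-sided permutation test of 3 against 3 arrays cannot give a p below 0.1. The Kitl minus Kit difference was -1.51, -0.92 and -1.21 on the CML arrays and -2.85, -2.87 and -3.29 on the AML arrays. The groups did not overlap, and the AML minus CML value of -1.79 ± 0.22 (SE) reached that smallest exact permutation p (0.1, and 0.233 adjusted over the 7 pairs). Since Kitl differed by 0.005, this value restates the Kit rise. Angpt1 minus Tek, at 1.77 ± 0.41, and Angpt1 minus Angpt2, at 1.61 ± 0.41 (SE), also had no overlap and the same exact permutation p. They were 0.87 and 0.80 with 16 added before log2, and 1.07 and 0.91 with probe set means. Tek and Angpt2 differed by -0.14 and 0.02, so both pairs largely restate the Angpt1 difference, which did not pass.

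The Cxcl12 minus Cxcr4 difference was -2.48, -0.70 and -1.0 in CML and -1.75, -0.95 and -2.40 in AML. The groups overlapped, at a change of -0.30 ± 0.69 (SE; exact permutation p = 0.800), which turned to 0.042 without CML 2 and 0.046 without AML 3. Cxcl12 minus Ackr3 was 1.14 ± 0.53 higher by value and Angpt2 minus Tek 0.16 ± 0.07 (SE; exact permutation p = 0.2 for both). Cxcl12 minus Dpp4 was 1.42 ± 1.48 higher by value (SE; exact permutation p = 0.4), at 2.42 without CML 2 and 0.033 without CML 1.

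**Figure D4:**
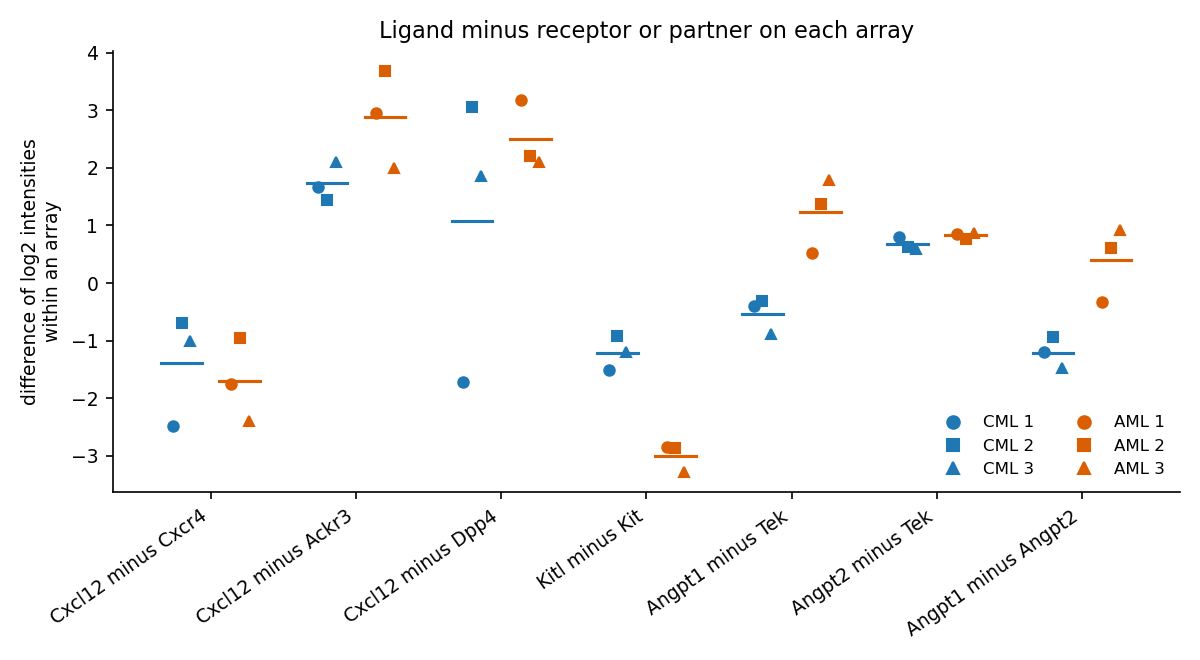
Difference of log2 intensities within an array, first gene minus second, for the 7 measured pairs. Points are single arrays and short lines group means (n = 3 each). Kitl minus Kit lies lower and both Angpt1 pairs lie higher on all AML arrays, while Cxcl12 minus Cxcr4 overlaps.

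Of 76 further genes of these pathways with a value, 7 rose in AML and 0 fell in limma, where 1.91% of all genes passed. The lists were chosen with earlier results of these data known, so the share of calls among them is no test of these pathways. At an unadjusted p under 0.05, 22 were higher and 8 lower, and their median change was 0.10 against -0.11 over all genes. The 7 were Elane, Prtn3, Ctsg, Cbl, Ptpn6, Spi1 and Stat3. None of them passed in limma without CML 3, AML 1 or AML 2, as for Kit, and Ctsg and Spi1 also did not pass without CML 1 or CML 2. With 16 added before log2, 5 of the 7 passed, without Ctsg and Spi1 (limma adjusted p = 0.0612 and 0.0736). After cyclic loess Cbl and Elane still passed, and after quantile normalization Cbl, Elane and Prtn3.

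The enzymes that cut the CXCL12 axis held the largest of these rises. Of 12 proteases and inhibitors, Elane, Prtn3 and Ctsg rose, the genes of neutrophil elastase, proteinase 3 and cathepsin G, granule proteases that can cleave CXCL12. Elane was at 7.08, 6.93 and 7.55 in CML and 11.60, 11.19 and 10.32 in AML, a rise of 3.85 ± 0.35 (SE; limma adjusted p = 0.0151). Ctsg rose by 3.17 ± 0.45 and Prtn3 by 3.14 ± 0.37 (SE; limma adjusted p = 0.0320 and 0.0248). These genes are also known markers of granulocyte progenitors, and the blood cell sums above were likewise higher in AML. Within AML the sums ranked as Elane and Ctsg did, but not as Prtn3. Within CML the highest sum was on CML 1, and all of these genes were highest on CML 3. The part of blood cell content in these rises was not tested. Mmp9, a gelatinase that frees stem cell factor from membranes, was 0.82 ± 0.39 higher by value, and Mmp2, a stromal gelatinase, was at -1.51 ± 0.66 (SE; limma adjusted p = 0.271 and 0.242). The list's median was 0.14.

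Of 15 further genes of the CXCL12 axis, among them the transcription factor genes Foxc1 and Ebf3, 0 rose and 0 fell in limma. At an unadjusted p under 0.05, 5 were higher and 1 lower, and the median was 0.17. Grk3, a kinase that desensitises CXCR4, was at 4.07, 3.95 and 4.70 in CML and 5.58, 6.08 and 5.06 in AML. Its difference was 1.34 ± 0.32 (SE; limma adjusted p = 0.0915). Grk3 passed after median centring (1.49, limma adjusted p = 0.0474). Gnai3, an inhibitory G protein subunit, had a difference of 1.26 ± 0.33 (SE; limma adjusted p = 0.116), and without CML 1 it passed at 1.60 (limma adjusted p = 0.0444). Mif, a further ligand of CXCR4, was bright and differed by 0.17 ± 0.26 (SE; limma adjusted p = 0.692).

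Of 16 genes that act downstream of KIT or regulate its gene, 3 rose and 0 fell in limma, with 6 higher and 0 lower at an unadjusted p under 0.05, and the median was 0.39. Cbl, the ubiquitin ligase that marks activated KIT for breakdown, was at 6.32, 6.20 and 5.93 in CML and 8.22, 8.21 and 7.86 in AML. It rose by 1.94 ± 0.18 (SE; limma adjusted p = 0.0151). Ptpn6, the phosphatase SHP-1 that restrains KIT, rose by 2.43 ± 0.32, and Spi1, the myeloid factor PU.1, by 1.97 ± 0.33 (SE; limma adjusted p = 0.0298 and 0.0453). By value 14 of the 16 were higher in AML and 2 lower. The 2 lower were Gata2 and Tal1, transcription factors of KIT-expressing progenitors and mast cells. They were at -0.92 ± 0.56 and -0.95 ± 0.53 with overlapping groups (SE, limma adjusted p = 0.354 and 0.317).

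**Figure D5:**
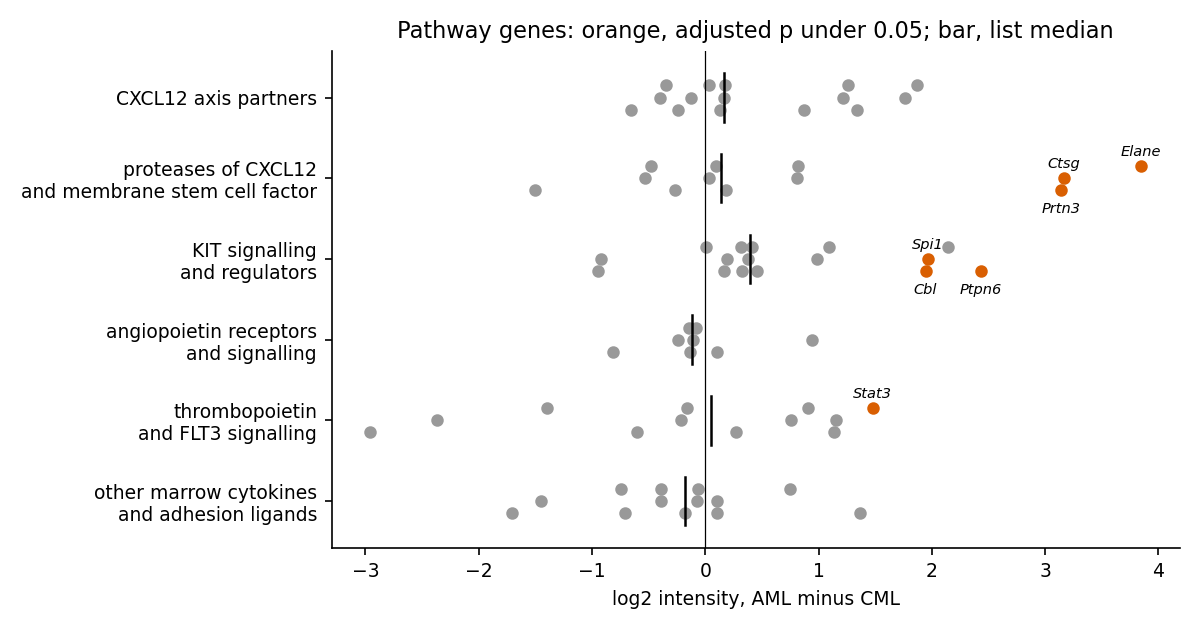
Change in log2 intensity, AML minus CML, of each pathway gene by list; points are genes, orange where the limma adjusted p was under 0.05, and bars are list medians. The 7 orange genes all lie to the right, with Elane at 3.85, and the vertical offset within a list has no meaning.

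Of 8 receptors and signalling genes of the angiopoietins, 0 passed in limma and 1 was higher at an unadjusted p under 0.05, with a median of -0.12. That gene was Klf2, an endothelial and leukocyte transcription factor, at 0.95 ± 0.30, and Foxo1, which TIE2 signalling restrains, was at -0.82 ± 0.39 (SE; limma adjusted p = 0.156 and 0.273). Without CML 2 Foxo1 passed, at -1.29 (limma adjusted p = 0.0417). Tie1, a co-receptor of TIE2, was at -0.24, and Ptprb, the phosphatase that damps TIE2, at -0.11.

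Flt3, the receptor of FLT3 ligand, was at 4.21, 3.93 and 4.10 in CML and 4.47, 5.26 and 5.24 in AML. The groups did not overlap, but AML 1 was near the CML arrays, and the difference of 0.91 ± 0.24 did not pass (SE; limma adjusted p = 0.118). Of the 12 measured genes of thrombopoietin and FLT3 signalling, Stat3, a transcription factor of cytokine signalling, rose by 1.48 ± 0.19 (SE; limma adjusted p = 0.0271). None fell in limma, and 5 were higher and 4 lower at an unadjusted p under 0.05, with a median of 0.05.

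A further 7 genes of this list were picked with their values in view, and none passed as fitted. The kinase gene Jak2 and the transcription factor genes Stat5a and Stat5b were 1.14 ± 0.29, 0.75 ± 0.20 and 1.15 ± 0.24 higher by value (SE; limma adjusted p = 0.111, 0.114 and 0.0679). Stat5a and Stat5b passed after median centring. Cish, a STAT5 target that damps the same receptors, was at 8.92, 10.99 and 10.02 in CML and 5.94, 6.57 and 8.55 in AML, a difference of -2.96 ± 0.78 (SE; limma adjusted p = 0.113). Socs1, Socs2 and Socs3 were at -1.40 ± 0.48, -2.37 ± 0.83 and -0.60 ± 0.20 (SE; limma adjusted p = 0.178, 0.184 and 0.164). Groups were separate for all 7, which can follow from how they were picked. Over the whole list the groups were separate for 10 of 12 genes, and over all genes for 31.3%.

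Of 13 other marrow cytokines and adhesion ligands, 0 passed in limma, with 1 higher and 3 lower at an unadjusted p under 0.05 and a median of -0.18. Il15, a lymphoid cytokine, was at 4.66, 4.07 and 4.06 in CML and 6.25, 5.74 and 4.91 in AML, a difference of 1.37 ± 0.36 (SE; limma adjusted p = 0.114). Osm, which encodes oncostatin M, was -1.45 ± 0.45 (SE; limma adjusted p = 0.149).

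By likeness of profile, the root mean square difference of log2 values centred on each gene's mean over the 6 arrays, Kit lay nearest to Hoxa5, 3830406C13Rik and Notch2, at 0.131, 0.136 and 0.142. This measure covers the difference between the groups, so no test is read from it. Cxcr4 lay nearest to Stat4, Plp2 and Ctps2, at 0.156, 0.167 and 0.174. Cxcl12 lay nearest to Nuak2, Prg3 and Gpr65, at 0.132, 0.147 and 0.181.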

How the data were processed

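The deposited value table gives 39721 probe sets on 6 arrays as intensity, which its range shows to be linear and not log values. Per the submitters' processing notes, limma and lumi were used; how background, probe set summary and scaling were handled, and the build, are not given in the sources used here. GEO's platform annotation pairs 23521 probe sets with 1 symbol and 1814 with several, and for the 1082 genes with more than 1 probe set the highest mean was used. Log2 intensity (floor 1, reached by 0 values) was tested two-sided, AML minus CML, with lmFit and eBayes of limma 3.58.1 (R 4.3.3); a gene had 4 residual degrees of freedom before eBayes. No detection p-value was used.

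The members and lists were chosen with earlier results of these data known. Of 156 list genes 146 were measured. Named genes were all members, Tek and Flt3, and from each list up to 4 genes past the threshold, or, in a list without calls, its 2 genes of lowest unadjusted p; the 3 nearest profiles were named for Cxcl12, Cxcr4 and Kit. Mif, Mmp2, Mmp9, Adam17, Gata2, Tal1, Tie1, Ptprb, Jak2, Stat5a and Stat5b were named outside this rule after their values were seen. So were Cish, Socs1, Socs2, Socs3, Il6, Vcam1 and the markers Col1a1, Bglap, Mcpt8, Mcpt4, Hdc, Tpsab1 and Ebf1. Foxc1 and Ebf3 were also outside the rule, and the markers Vav1, Meis1, Hoxa9 and Mecom were named as those past the threshold. Alternatives were 3 other scalings, 16 added before log2, the upper 50% of genes by mean level, probe set means, other variance models, fits without 1 array and a replicate block. The limma fit was tested on simulated data, and the other steps were not. Figures used matplotlib 3.10.9 under Python 3.11.15.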

Additional observations from a re-analysis of the deposited data

How the results depend on the processing

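Kit kept its direction under all 9 alternatives and with each array left out (1.62 to 1.94). Its call ended after cyclic loess (1.64, limma adjusted p = 0.0621) and with the replicate block (1.80, limma adjusted p = 0.114); the cause was not tested. Its adjusted p over the alternatives ran from 0.0140 to 0.114. The number of members past the threshold was 0 in those 2 fits, with 2 and 3 at an unadjusted p under 0.05, and 0 to 1 with an array left out. In the fit of every probe set it was 0 after quantile normalization, cyclic loess, trend and robust options, the replicate block, and with each array left out (0 to 0). The count over all genes, 423 as reported, was 93 after quantile normalization, 896 after median centring, 64 after cyclic loess, 232 with 16 added, 639 with array weights, 0 with the replicate block (3711 with an unadjusted limma p under 0.05) and 0 to 438 with an array left out. It was 0 without CML 3, AML 1 or AML 2, where 3533, 3048 and 3750 genes had an unadjusted limma p under 0.05. The pathway count of 7 was 3, 11 and 2 under the other scalings in that order, 5 with 16 added, 0 with the block (31 unadjusted) and 0 to 8 with an array left out. Median centring moved the median change of all genes from -0.11 to 0.04.

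Among the genes and pairs followed here, signs turned only where the difference was smaller than its SE. Kitl ran from -0.16 to 0.22 with an array left out, at -0.0033, -0.028, -0.040 and -0.16 without CML 1, CML 2, AML 1 and AML 2. Angpt2 was -0.00033 with array weights and ran from -0.050 to 0.086, at -0.022 and -0.050 without CML 2 and AML 2. Tek was 0.030, 0.0065 and 0.071 after quantile normalization, median centring and cyclic loess. Dpp4 ran from -1.63 to 0.87 (0.87 without CML 1) and Cxcl12 minus Cxcr4 from -0.85 to 0.046 (0.042 without CML 2, 0.046 without AML 3). The titles number the arrays alike in both groups. Deviations of same-numbered arrays correlated at 0.244, -0.302 and -0.251 across genes. With 3 arrays a group these values cannot settle whether the numbers pair the samples. The replicate block is given only as an alternative, and the calls above hold only if the samples are not paired. The upper 50% of genes left out Kitl, Angpt1 and Angpt2, which therefore have no value under it. With 3 arrays a group and no background measure, dim probe sets such as Kitl and Tek limit what can be seen.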

Other observations

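Il6, an inflammatory cytokine of stromal and myeloid cells, was at 7.34 on CML 1 and between 2.87 and 3.51 on the other 5 arrays, so its mean difference of -1.71 ± 1.04 (SE; limma adjusted p = 0.348) rests on that array. CML 1 was also the highest array for Dpp4, at 8.25, for Mcpt8, a basophil protease, at 10.90 against 4.87 to 6.93 elsewhere, and for Ebf1, a factor of B lineage and reticular cells, at 8.65. Vcam1, the adhesion ligand that anchors progenitors to stroma, was at 6.54 on AML 1 and between 3.83 and 4.17 on the other 5 arrays (limma adjusted p = 0.507). These genes were picked after their values were seen.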
